A study of Homo sapiens with 3 samples.

Results

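The 10 genes described here encode the enzymes of serine synthesis and of the folate cycle that carries single-carbon units, and their ribosome footprints were compared in HEK293T cells between those given WT p53 and those given the mutants G245S or R273H. They are PHGDH, PSAT1 and PSPH of serine synthesis, the cytosolic folate enzymes SHMT1 and MTHFD1, and the mitochondrial folate enzymes SHMT2, MTHFD2, MTHFD2L, MTHFD1L and ALDH1L2. They are the rows with these names among the 63241 genes of the count table. The rule names genes and no measured value, but it was set with earlier results of these data known. All 10 passed the filter on low counts, as did 19820 genes in all. HEK293T cells derive from human embryonic kidney and hold the large T antigen of SV40, which binds p53, and all 3 groups share this background. Both mutations are recurrent in cancer and fall in the part of p53 that contacts DNA, and the study used these libraries to ask how the mutants change translation. Per the methods the constructs were delivered by lentivirus and the lines selected with puromycin, whereas the labels also call the expression transient and name the wild-type construct in the treatment field of the mutants, so groups were taken from the sample titles. Each group had 3 dishes (n = 3), all treated with cycloheximide for 2 min to hold ribosomes in place.

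Serine is made from a glycolytic intermediate in successive steps by PHGDH, PSAT1 and PSPH. SHMT enzymes then split serine into glycine and a carbon unit held by tetrahydrofolate, in the cytosol (SHMT1) or in mitochondria (SHMT2). The MTHFD enzymes oxidise that unit to formate, which leaves mitochondria to serve the synthesis of purines and thymidylate, while ALDH1L2 oxidises formyl-tetrahydrofolate to carbon dioxide in mitochondria and yields NADPH. Several of these genes are known targets of ATF4, a transcription factor of the amino acid and mitochondrial stress responses.

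Because most of these genes moved in the same direction, the DNA before their start sites was read for letters they share. The promoter table of RefSeq (GRCh38.p14) held 7 of the 10 genes, and PSPH, SHMT2 and ALDH1L2 were not in it. In the 250 bases upstream of each start, the letters TGATGNAA, a form of the element bound by ATF4 with C/EBP partners, were searched on both strands. They were present in 1 of the 7 genes, MTHFD1L, and in 3.89% of 27305 genes in the table. The letters CCAATCA, a form of the CCAAT box bound by NF-Y, stood in 4 of the 7 genes (PHGDH, MTHFD1, MTHFD2 and SHMT1) and in 7.98% of all genes. They were chosen after these windows had been read, so a high count among the 7 genes was built in and is no evidence of enrichment. Of the 4 genes, SHMT1 was not called in either mutant. The motifs do not overlap each other. A match describes letters only. The 5 stretches of 30 bases are shown, 5′ to 3′ on the strand of the gene, with the motif in capitals; SHMT1 has it on the opposite strand, where the capitals read as the reverse complement. They lie at chr6:150866346-150866375 (plus strand), chr1:119711852-119711881 (plus), chr14:64388126-64388155 (plus), chr2:74198420-74198449 (plus) and chr17:18363559-18363588 (minus). All but that of MTHFD2 also overlap an exon of the same gene in GENCODE v44, since these genes have more than a single annotated start.
MTHFD1L: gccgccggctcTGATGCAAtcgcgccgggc
PHGDH: agtatttccgtCCAATCAaaaggagactgt
MTHFD1: ctttctttccgCCAATCAtttccgccagcc
MTHFD2: ctcttctggctCCAATCAaaagcagggctc
SHMT1: gctgcgctctcTGATTGGgcgcctccgggg

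The libraries held 18.7 to 24.6 M expected counts. Per the labels, the 3 dishes of a group were combined at reverse transcription, so group and pool cannot be told apart, and each adjusted p-value sets a difference beside the spread of dishes read in the same pool. The p53 targets MDM2 and CDKN1A served to check the labels. MDM2, the ubiquitin ligase of p53, fell from 860 ± 49.3 CPM (SD, n = 3 dishes) in WT to 76.8 ± 4.20 in G245S and 76.7 ± 2.94 in R273H, and CDKN1A, the cell-cycle inhibitor p21, fell from 61.1 ± 2.27 to 16.1 ± 0.345 and 13.9 ± 0.515 CPM. CPM are counts scaled to a common library total. Of 8 epithelial or kidney markers, KRT8, KRT18 and CDH2 had group means of 33.9 to 292 CPM, EPCAM, CDH1, PAX2 and LHX1 had 3.91 to 7.21 CPM, and PAX8 was near 0 (0.0352 to 0.0559 CPM). Of 6 markers of other cell types, PTPRC, PECAM1, ALB and MYH7 stayed at or under 0.0867 CPM and GFAP at or under 0.334 CPM, while the collagen gene COL1A1 had 27.5 to 32.5 CPM. In bulk lysates, fewer cells of a kind and less RNA per cell cannot be told apart.

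Relative to WT, 8 of the 10 genes were called higher in G245S and 8 of 10 in R273H, and 0 were called lower in either mutant. A gene was called when the Benjamini-Hochberg adjusted p of edgeR's quasi-likelihood test, over all 19820 genes, was under 0.05. Over all genes tested, the share called against WT was 24.7% in G245S, made of 12.6% higher and 12.1% lower, and 28.8% in R273H, made of 14.2% higher and 14.6% lower. Among the 10286 genes with a mean count within the range of these enzymes (199 to 15702), 18.9% were called higher in G245S and 20.1% in R273H. The median log2 fold change of the 10 genes was 0.24 in G245S and 0.21 in R273H, against -0.00069 and -0.0024 over all genes tested. The same 8 genes were called in both mutants, which share their WT dishes: every one but SHMT1 and MTHFD2L. With a term for replicate number in the fit, SHMT1 in G245S (adjusted p 0.0298) and MTHFD2L in both mutants (0.0416 and 0.0450) were called lower. The changes were small. Tested against a minimum fold change of 1.2 rather than against no change, 2 of the 10 genes were called in G245S (SHMT2 and ALDH1L2) and 1 in R273H (ALDH1L2). Of all 19820 genes, 547 in G245S and 693 in R273H were then called, 35.1% and 38.7% of them higher. Together the 10 genes took 0.218% ± 0.00215 of the counts of a WT library, 0.252% ± 0.00236 in G245S and 0.247% ± 0.000946 in R273H.

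**Figure D1:**
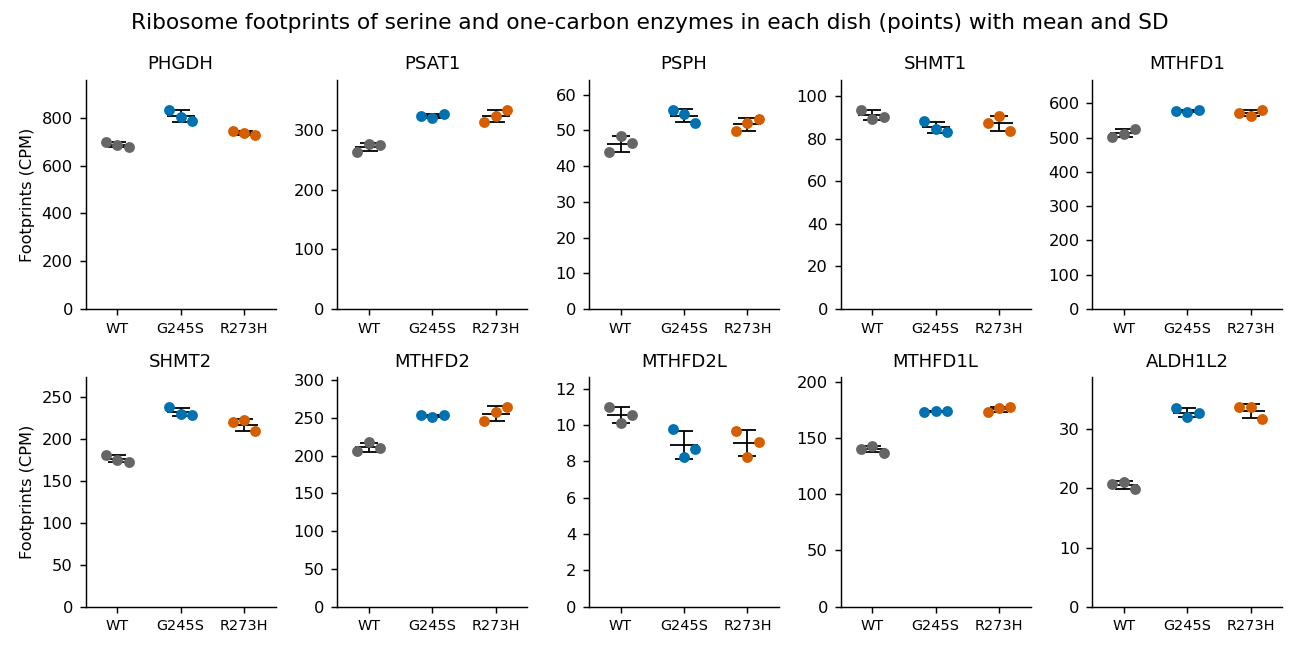
Footprints in CPM (y axis, from 0) of each gene in each of the 3 dishes of WT, G245S and R273H (points), with the group mean and SD (black). For 8 genes every mutant dish lies above every WT dish, whereas the mutant means of SHMT1 and MTHFD2L lie below WT. Here and in the text below, the share of all genes whose dishes separate in this way is not given. Such separation thus cannot be set beside that of other genes. Over all genes tested, 24.7% in G245S and 28.8% in R273H were called against WT, a different measure that counts both directions.

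All 3 enzymes of serine synthesis were called higher in both mutants. PHGDH, which catalyses the first step, had 698, 688 and 679 CPM in the WT dishes, 834, 803 and 787 in G245S, and 744, 736 and 727 in R273H. The 3 groups did not overlap, with R273H between WT and G245S. PHGDH thus rose by 0.23 ± 0.0238 (log2 fold change ± SE) in G245S, with an adjusted p of 1.6e-08, and by 0.096 ± 0.0237 in R273H, with an adjusted p of 0.00284. PSAT1, the aminotransferase of the second step, had 264, 276 and 275 CPM in WT, 323, 319.9 and 326 in G245S, and 314, 324 and 334 in R273H. Mutant dishes lay above all WT dishes and overlapped each other, at log2 fold changes of 0.25 in both mutants (adjusted p 5.3e-08 and 3.0e-08). PSPH, the phosphatase that releases serine, had 43.9, 48.4 and 46.3 CPM in WT, 55.8, 54.5 and 52.0 in G245S and 49.8, 52.1 and 53.2 in R273H, again without overlap with WT. PSPH rose by 0.23 ± 0.0475 on the log2 scale in G245S (adjusted p 0.000659) and by 0.16 ± 0.0466 in R273H (adjusted p 0.00915). The call in R273H was lost without WT replicate 1 (log2 fold change 0.12, adjusted p 0.0763). The 3 enzymes together went from 1006 ± 5.83 CPM in WT to 1185 ± 24.9 in G245S and 1111 ± 3.34 in R273H, and the ranges of the 3 groups were separate. These sums were not tested with a model, and an exact permutation test of 3 dishes against 3 cannot go below p = 0.1 (two-sided).

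Of the cytosolic folate enzymes, MTHFD1 was called higher and SHMT1 was not called. MTHFD1, a trifunctional enzyme that interconverts the folate-bound units and formate, had 502, 511 and 526 CPM in WT, 577, 573 and 581 in G245S, and 570.4, 563 and 579.8 in R273H. MTHFD1 rose by 0.17 ± 0.0237 on the log2 scale in G245S (adjusted p 3.0e-06) and by 0.15 ± 0.0235 in R273H (adjusted p 9.7e-06). SHMT1 had 93.6, 89.2 and 89.9 CPM in WT, 88.0, 84.5 and 83.2 in G245S, and 87.3, 90.8 and 83.8 in R273H. The G245S dishes lay just under the WT dishes and the R273H dishes overlapped them, and the log2 fold change was -0.094 (95% confidence interval -0.17 to -0.016, adjusted p 0.0719) and -0.058 (-0.13 to 0.018, adjusted p 0.260). Both intervals lie below the log2 fold changes of the mitochondrial counterpart SHMT2 (0.40 and 0.30). They reflect the spread of dishes within a pool and not differences between pools.

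Of the mitochondrial folate enzymes, 4 of 5 were called higher in both mutants, and they included the largest changes of the 10 genes. SHMT2, which loads carbon units from serine onto mitochondrial folate, had 181, 176 and 173 CPM in WT, 238, 229.9 and 229 in G245S, and 220.3, 223 and 209 in R273H. No dish of one group lay among those of another, and SHMT2 rose by 0.40 ± 0.0300 on the log2 scale in G245S (adjusted p 3.4e-11) and by 0.30 ± 0.0297 in R273H (adjusted p 6.4e-09). MTHFD2, the dehydrogenase and cyclohydrolase that follows SHMT2 and is known as an enzyme of proliferating cells, had 206, 218 and 210.05 CPM in WT, 254, 251 and 254 in G245S, and 245.4, 258 and 264 in R273H. All mutant dishes were above all WT dishes, and MTHFD2 rose by 0.26 on the log2 scale in G245S and by 0.27 in R273H, with adjusted p of 1.0e-07 and 2.6e-08. MTHFD1L, which releases formate in mitochondria, had 140.5, 143 and 137 CPM in WT, 173, 174 and 174 in G245S, and 173, 176 and 177 in R273H. MTHFD1L rose by 0.31 ± 0.0289 on the log2 scale in G245S (adjusted p 2.3e-09) and by 0.32 ± 0.0284 in R273H (adjusted p 6.6e-10).

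ALDH1L2 changed most. It had 20.6, 21.1 and 19.9 CPM in WT, 33.6, 32.0 and 32.7 in G245S, and 33.6, 33.6 and 31.6 in R273H. The groups of both mutants were thus about 1.6-fold WT (1.59 and 1.60) and overlapped each other, with rises on the log2 scale of 0.67 ± 0.0578 for G245S and 0.68 ± 0.0562 for R273H, at adjusted p of 4.5e-10 and 1.9e-10. These rest on 377 to 832 counts per library, all of them whole numbers, as happens when no read is shared out between genes. Its cytosolic counterpart ALDH1L1 had 0.458 to 1.11 CPM per dish and was not called (log2 fold change -0.36, adjusted p 0.487, and -0.61, adjusted p 0.189). MTHFD2L, the less abundant relative of MTHFD2, went the other way without being called. It had 11.0, 10.1 and 10.6 CPM in WT, 9.76, 8.24 and 8.69 in G245S, and 9.68, 8.25 and 9.06 in R273H. Every mutant dish was under every WT dish, yet with 162 to 238 counts per library the log2 fold changes of -0.25 (95% confidence interval -0.45 to -0.046) and -0.23 (-0.43 to -0.034) had adjusted p of 0.0664 and 0.0724. Without G245S replicate 1 the first became -0.31 with an adjusted p of 0.0441.

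**Figure D2:**
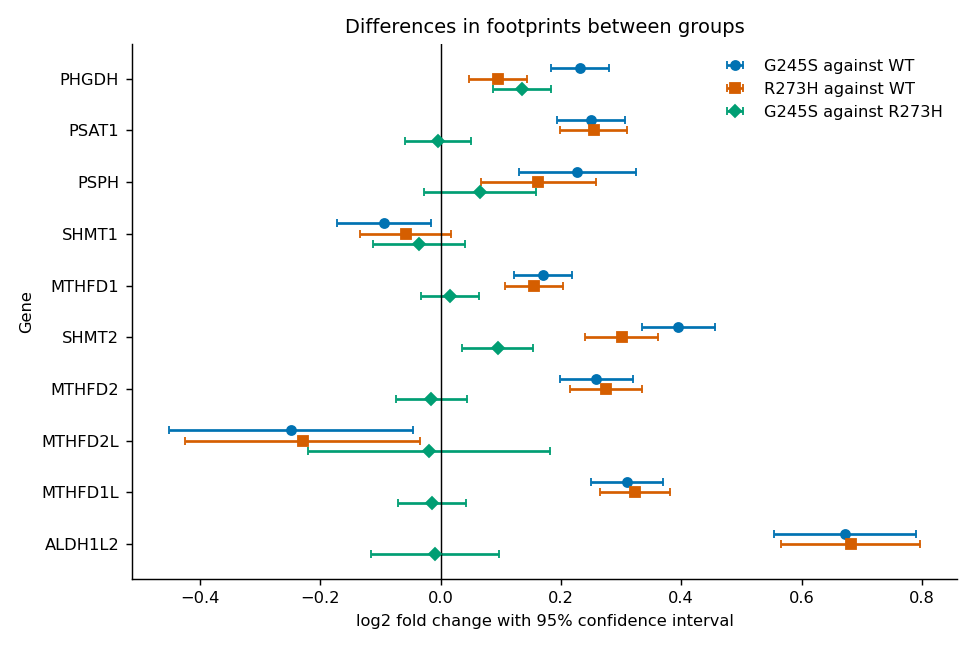
The log2 fold change of each gene (x axis) with its 95% confidence interval, for G245S against WT (circles), R273H against WT (squares) and G245S against R273H (diamonds). The values against WT lie right of 0 for 8 genes, farthest for ALDH1L2 (0.67 and 0.68), and left of 0 for SHMT1 and MTHFD2L.

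Within the pairs of related enzymes, the share of footprints per coding length was higher in the mutants for SHMT2, MTHFD1L and MTHFD2. SHMT2 took 65.0% ± 0.270 (SD, n = 3 dishes) of the footprints of SHMT1 and SHMT2 per coding length in WT, 72.3% ± 0.177 in G245S and 70.5% ± 0.312 in R273H, so that the 3 groups stood apart. MTHFD1L took 20.7% ± 0.668 of the sum with MTHFD1 in WT, 22.3% ± 0.133 in G245S and 22.7% ± 0.312 in R273H. MTHFD2 took 95.2% ± 0.314 of the sum with MTHFD2L in WT, 96.6% ± 0.277 in G245S and 96.6% ± 0.357 in R273H. In each pair the mutant dishes lay above the WT dishes, and the shares, like the sums, are given without a test. The 5 mitochondrial enzymes together went from 559 ± 8.44 CPM to 700.4 ± 6.68 and 690.3 ± 8.31, and the 2 cytosolic enzymes from 604 ± 10.5 to 662 ± 3.83 and 658 ± 5.12. Expected counts of SHMT2 were whole numbers (within 0.005) in 8 of 9 libraries and those of MTHFD2L in 8, whereas those of SHMT1, MTHFD1, MTHFD2 and MTHFD1L were whole in 0, as happens when reads are shared between genes or pseudogenes. Named pseudogenes of PSAT1, PSPH, SHMT1, MTHFD1 and MTHFD2 held 4.70%, 2.99%, 0.340%, 0.616% and 1.05% of the counts of their parent gene, and adding them to the parent changed no call. SHMT1, MTHFD1, SHMT2, MTHFD2 and ALDH1L2 overlap protein-coding genes of the opposite strand (SMCR8, ZBTB25, NDUFA4L2, SLC4A5, and NOPCHAP1 with WASHC4, among others). These overlaps are of whole gene spans and were not checked for exons. Without a stated strand setting, reads from any bases that such a pair shares cannot be told apart.

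**Figure D3:**
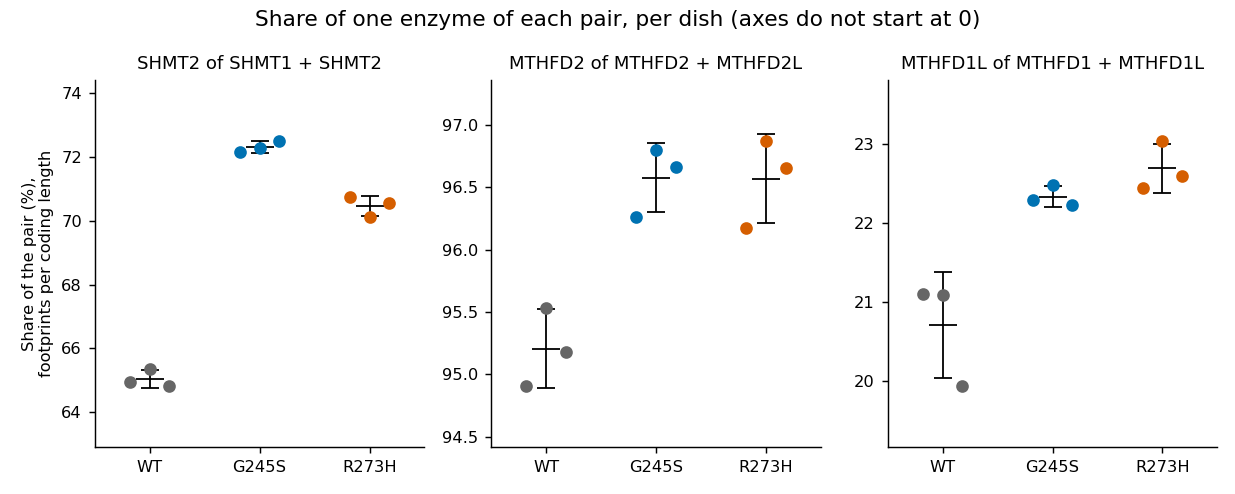
Share in percent (y axes, which do not start at 0) of one enzyme in the footprints of its pair, per coding length, in each dish, with mean and SD. The SHMT2 share separates all 3 groups (65.0%, 72.3% and 70.5%), and the other shares separate only WT from the mutants.

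Levels of different genes can be compared only per length. In WT, the order by CPM per kb of coding sequence was PHGDH (430.4 ± 5.90), PSAT1 (244.9 ± 6.15), MTHFD2 (201 ± 5.58), MTHFD1 (183 ± 4.25), SHMT2 (117 ± 2.71), PSPH (68.4 ± 3.35), SHMT1 (62.7 ± 1.62), MTHFD1L (47.7 ± 0.995), MTHFD2L (10.1 ± 0.422) and ALDH1L2 (7.42 ± 0.226). Levels thus ran from PHGDH down to ALDH1L2, and the neighbours closest in ratio were PSPH and SHMT1. In the mutants 2 neighbours changed their standing. ALDH1L2 stood above MTHFD2L, at 11.8 ± 0.285 against 8.54 ± 0.749 CPM per kb in G245S and 11.9 ± 0.422 against 8.64 ± 0.687 in R273H. MTHFD1L and SHMT1 were level within their spread, at 59.2 ± 0.195 and 58.8 ± 1.73 in G245S and 59.7 ± 0.806 and 60.2 ± 2.43 in R273H. Whether the deposited counts cover untranslated regions is not given in the sources used here, so the division by coding length is approximate.

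**Figure D4:**
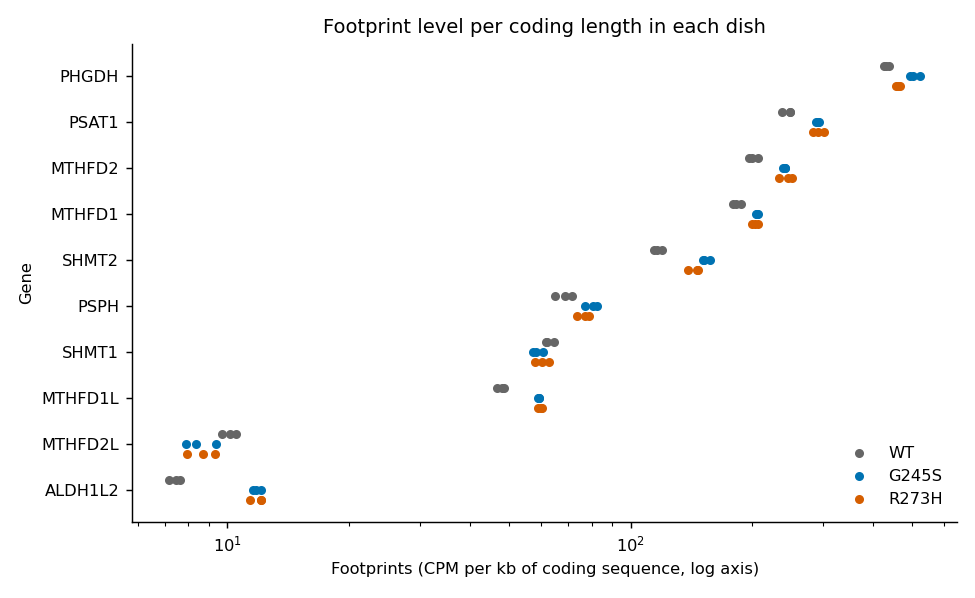
Footprints per kb of coding sequence (x axis, log scale) of each gene in each dish of WT, G245S and R273H, ordered by the WT mean. The 10 genes run from PHGDH at 430.4 to ALDH1L2 at 7.42 in WT, and ALDH1L2 passes MTHFD2L in both mutants.

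Between the mutants, 1 of the 10 genes differed. PHGDH was higher in G245S than in R273H by 0.14 on the log2 scale (SE 0.0236, adjusted p 0.00156), in all 3 dishes. Over all genes tested, 2.59% were called in this comparison, 1.86% higher in G245S and 0.732% lower. SHMT2 was also higher in every G245S dish than in any R273H dish, at a log2 difference of 0.095 (95% confidence interval 0.035 to 0.15) with an adjusted p of 0.0811, which became 0.0473 without WT replicate 3. With a term for replicate number in the fit, the adjusted p of SHMT2 was 0.00558. For MTHFD1, MTHFD2, MTHFD1L and PSAT1 the intervals of the difference were narrow, from -0.074 to 0.064 in all, while that of MTHFD2L ran from -0.22 to 0.18 and that of ALDH1L2 from -0.12 to 0.096.

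The wider list held 52 further genes of serine, glycine, folate, methionine and purine metabolism, of which 44 passed the filter. In G245S 24 were called, 17 higher and 7 lower (median log2 fold change over the 44 genes 0.085), and in R273H 28, 20 higher and 8 lower (median 0.092). Called higher were thus 38.6% and 45.5%, against 12.6% and 14.2% of all genes tested. The lower calls were not far from the 12.1% and 14.6% called lower over all genes tested. The purine synthesis group, whose pathway uses formyl groups from the folate cycle, had 10 of 11 genes called higher in G245S and 8 of 11 in R273H and 0 lower, with medians of 0.15 and 0.16. PPAT, the first enzyme of that pathway, had 116, 114 and 117 CPM in WT, 130.5, 137 and 143 in G245S, and 144, 139.5 and 144 in R273H (log2 fold changes 0.24 and 0.30, adjusted p 3.2e-06 and 6.1e-08). Of the 4 other groups, 3 had calls in both directions. Of the 13 genes tested for folate uptake, reduction and use, 2 were higher and 3 lower in G245S, and 3 were higher and 4 lower in R273H. Of the 7 genes tested of the methionine cycle and transsulfuration, 3 were higher and 2 lower in G245S, and 4 were higher and 2 lower in R273H. Of 10 genes of glycine cleavage and serine or glycine handling, 2 were higher and 1 lower in G245S, and 5 were higher and 1 lower in R273H. Of 3 genes for carbon units from choline, 0 were higher and 1 was lower in each mutant.

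TYMS, the thymidylate synthase that consumes folate-bound carbon, showed the largest fall among genes of the wider list called in both mutants with a mean count of at least 100. It had 215, 203 and 206 CPM in WT, 138, 133 and 134 in G245S, and 121, 126 and 128 in R273H, so its log2 value fell by 0.62 ± 0.0312 in G245S (adjusted p 2.7e-15) and by 0.73 ± 0.0308 in R273H (adjusted p 3.5e-17). Like MTHFD2L and unlike the 8 enzymes above, it was lower in every mutant dish. SDSL, a relative of serine dehydratase, fell from 14.1 ± 1.05 CPM to 9.63 ± 0.469 and 9.58 ± 0.439 (log2 fold changes -0.56 in both, adjusted p 2.4e-05 and 1.1e-05), and ALDH7A1, which oxidises betaine aldehyde among other substrates, fell from 189.6 ± 4.12 to 163 ± 9.44 and 166 ± 1.76 (-0.22 and -0.19). CTH, which makes cysteine from cystathionine, rose from 24.0 ± 1.38 CPM to 31.0 ± 1.31 and 30.5 ± 0.918 (0.38 and 0.35, adjusted p 2.1e-05 and 3.5e-05). SLC6A9, a glycine transporter, had 3.33 to 4.37 CPM in the WT dishes, 5.08 to 6.34 in G245S and 4.77 to 5.78 in R273H (0.53 and 0.43, adjusted p 0.00716 and 0.0217). The call of SLC6A9 was lost in G245S without WT replicate 2 (adjusted p 0.0532) or without G245S replicate 1 (0.0524), and in R273H without WT replicate 2 (0.124) or without R273H replicate 3 (0.103) and with DESeq2 (0.112).

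Between the mutants, 3 of the 44 genes of the wider list were called, against 2.59% of all genes tested. CBS, which joins serine to homocysteine, was higher in G245S than in R273H (193 ± 8.08 against 171 ± 5.05 CPM, 0.17 on the log2 scale, adjusted p 0.00310). GLDC and GCSH, subunits of the glycine cleavage system, were lower in G245S (38.7 ± 1.70 against 47.6 ± 0.607 CPM, -0.30, adjusted p 0.000737, and 129.4 ± 3.63 against 143.5 ± 4.24 CPM, -0.15, adjusted p 0.00973). They were named because they were all that was called. The call of GCSH was lost in 4 of the fits that left out 1 dish, without G245S replicate 1 or 2 or R273H replicate 2 or 3 (adjusted p 0.0553 to 0.103).

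A list of 23 genes of the ATF4 response, none of them among the 10 enzymes, was set beside them. All 23 passed the filter. In G245S 14 were called higher and 3 lower (median log2 fold change 0.27), and in R273H 15 higher and 3 lower (median 0.25). Called higher were thus 60.9% and 65.2%, against 12.6% and 14.2% of all genes tested, where 12.1% and 14.6% were called lower. ATF4 itself had 104, 106 and 103 CPM in WT, 126, 127 and 124 in G245S, and 133, 131 and 132 in R273H (log2 fold changes 0.27 and 0.34, adjusted p 1.5e-07 and 1.1e-09). ASNS, the asparagine synthetase that is a standard ATF4 target, had 134, 138 and 144 CPM in WT, 195, 194.5 and 205 in G245S, and 193, 194 and 190.2 in R273H (0.52 and 0.47, adjusted p 2.3e-13 and 1.2e-12). The list did not move as a whole. SESN2 was lower in both mutants (-0.71 and -0.76), as was ATF5 (-0.47 and -0.39). The 1 further lower gene was ATF3 in G245S (-0.32) and DDIT4 in R273H (-0.16). Of the 23 genes, 1 was called between the mutants, against 2.59% of all genes tested. It was DDIT4, higher in G245S than in R273H (0.23, adjusted p 0.00377). These genes were named after their values were seen. In the upstream windows described above, the letters TGATGNAA stood in 4 of the 18 genes of this list that the promoter table held (22.2%). They stood in 0 of 42 of the wider list and in 3.89% of all genes. The letters CCAATCA stood in 3 of the 18 (16.7%) and 8 of the 42 (19.0%), against 7.98% of all genes. These counts are small and the differences were not tested.

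**Figure D5:**
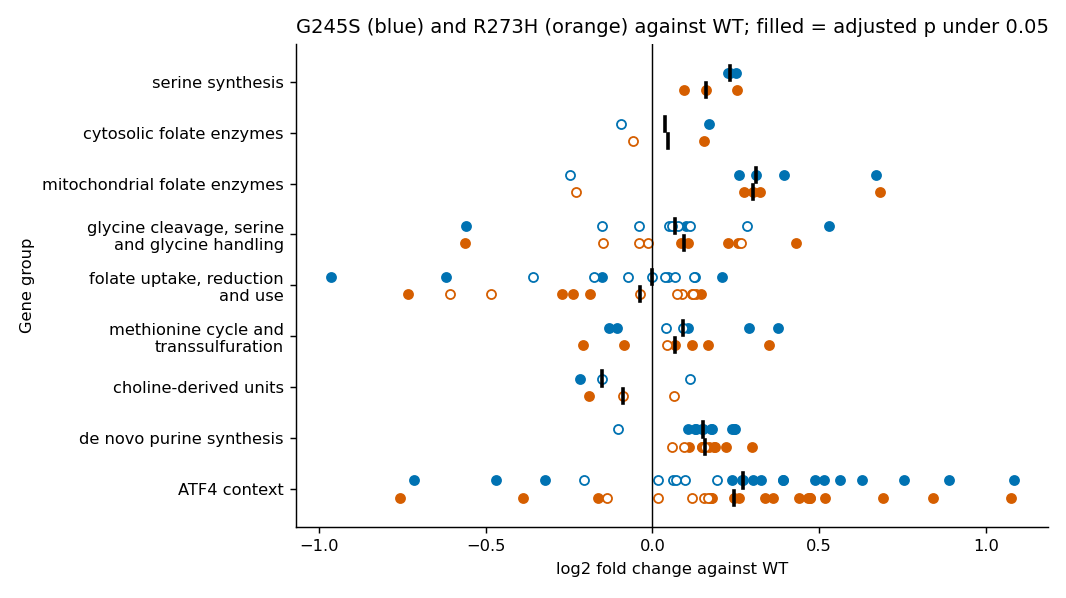
The log2 fold change against WT (x axis) of every tested gene of each group, for G245S (blue) and R273H (orange). Filled points have an adjusted p under 0.05 and black bars mark group medians, which stand highest for the mitochondrial folate enzymes (0.31 and 0.30) and the ATF4 list (0.27 and 0.25).

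Over the 9 libraries, the genes with footprints most like those of ALDH1L2, of 12652 with a mean count of at least 100, were NUP188, FSCN1, ACACA, TMEM132E and ALG8, with Pearson's r of log2 CPM between 0.991 and 0.996. All of these points share the step between WT and the mutants, so r mainly restates it. The log2 fold changes in G245S and R273H were 0.35 and 0.33 for NUP188, 1.01 and 0.99 for FSCN1, 0.38 and 0.38 for ACACA, 1.36 and 1.38 for TMEM132E, and 0.31 and 0.32 for ALG8.

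A trend with coding length moved with the groups, and its cause was not tested. The Spearman correlation across genes between coding length and the deviation of a gene in a library from its mean over all libraries was -0.18 to -0.14 in the WT dishes, -0.012 to 0.12 in G245S and 0.14 to 0.20 in R273H, without overlap. With coding GC content in place of length, it was 0.26, 0.13 and -0.18 in WT, 0.35, 0.30 and -0.19 in G245S, and -0.18, -0.14 and -0.43 in R273H. PHGDH and SHMT2 have the highest coding GC content of the 10 genes (58.8% and 58.2%). With both trends removed, PHGDH was still called between the mutants and SHMT2 was not. With trends on length and GC content removed, the same 8 enzymes remained called higher in both mutants at log2 fold changes between 0.11 and 0.66. SHMT1 was then called lower in G245S (-0.092, adjusted p 0.0218) and MTHFD2L lower in R273H (-0.23, adjusted p 0.0422). Footprint counts do not separate the amount of an mRNA from its translation, and cells without a p53 construct were not analysed here.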

How the data were processed

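Ribosome footprints (monosome fraction after digestion with 3 U micrococcal nuclease per µg RNA for 30 min) were measured in 9 libraries, 3 dishes for each of 3 groups. Per the labels and methods, the authors trimmed adapters (Trim Galore, cutadapt), used UMI-tools where reads carried molecular barcodes, removed rRNA reads (SortMeRNA) and aligned to GRCh38 with STAR. The deposited table holds expected counts per gene without scaling. Of the nonzero values of a library, 61.5% to 63.7% were not whole. The counting tool, annotation release, strand setting and treatment of multi-mapping reads are not given in the sources used here.

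Values were rounded before the fit, which was made with edgeR 4.0.16 (R 4.3.3; TMM, filterByExpr, robust quasi-likelihood test, two-sided, group as the only term, 6 residual degrees of freedom), with Benjamini-Hochberg adjustment over 19820 genes. The biological coefficient of variation was 2.58%. Confidence intervals (95%) of log2 fold changes use the standard error (SE) of the fit. Since each library was scaled to its own total, a shift shared by all genes would not be seen. CPM use TMM-scaled totals. Coding lengths are those of GENCODE v44 canonical transcripts, in which all 10 genes were found. Libraries of 18.7 to 24.6 M counts gave 162 to 18288 counts per enzyme, and this covers counting error only. The fit was tested on data with known answers.

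The labels give 1 sample per group, and the 3 columns of each were taken as dishes. Dishes of a group differed by more than sampling noise (chi-square per degree of freedom 1.48 to 2.62). The enzymes and lists were chosen with earlier results of these data known. The named genes are the 10 enzymes, up to 3 genes in each direction of the wider list with the largest mean change (called in both mutants, mean count at least 100), ATF4, ASNS, MDM2, CDKN1A and the 5 genes most like the enzyme that changed most. Alternatives were another scaling (RLE, upper quartile), no low-count filter, DESeq2 1.42.0, a minimum fold change of 1.2, the 6 libraries compared only, a replicate block, removal of length and GC trends, unrounded counts, each dish left out and, added after seeing the data, pseudogene counts added to the parent gene.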

Additional observations from a re-analysis of the deposited data

Results flagged for a closer look

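The mutants differed by a test of the difference itself in 4 genes of the serine and folate lists. Over all genes tested, 2.59% were called in this comparison. PHGDH was higher in G245S than in R273H (log2 difference 0.14, adjusted p 0.00156), and this call was lost only when tested against a minimum fold change of 1.2. CBS was higher in G245S (0.17, adjusted p 0.00310). GLDC (-0.30, adjusted p 0.000737) and GCSH (-0.15, adjusted p 0.00973) were lower in G245S. In R273H all 4 were called above WT, although the call of CBS there was lost without R273H replicate 3 (log2 fold change 0.096, adjusted p 0.0556), whereas in G245S PHGDH and CBS were called above WT (0.23 and 0.29), and GLDC and GCSH were not called (-0.041 and 0.077). GCSH was called in G245S as well without WT replicate 3 (0.10, adjusted p 0.0337) and with length and GC trends removed (0.14, adjusted p 5.0e-05). Both mutants were read in separate pools, so mutant and pool cannot be told apart.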

How the results depend on the processing

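No log2 fold change of a named gene changed sign with a call under any alternative. Tested against a minimum fold change of 1.2, calls fell to 2 and 1 of the 10 enzymes in G245S and R273H, to 2 and 2 of the wider list, to 0 and 0 of the purine group and to 9 and 8 of the ATF4 list, and between the mutants to 0 enzymes and 0 genes of the wider list. Over all genes, calls then numbered 547 and 693 against WT and 3 between the mutants. With DESeq2 they numbered 3079, 3573 and 343, against 4900, 5707 and 513 with edgeR, and 8 enzymes remained called against WT in each mutant. Upper-quartile scaling put 56.1% and 54.7% of calls against WT on the higher side, where TMM had 51.0% and 49.2%. Leaving out 1 dish gave 8 to 9 enzymes called in G245S, 7 to 8 in R273H and 1 to 2 between the mutants, the second being SHMT2 without WT replicate 3. The added call in G245S was MTHFD2L, called lower without G245S replicate 1. Removing length and GC trends gave 5 genes of the wider list called between the mutants.

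The sources do not state that replicate numbers pair the dishes, and the main fit leaves the numbers out. The values do not show that the numbers are without effect. Deviations of same-numbered pairs correlated at r 0.044 to 0.23 (over 0.1 in 4 of 9), against -0.19 to 0.059 for other pairs. All 9 libraries correlated best with one of their own number. With a replicate block, 5779, 6547 and 1262 genes were called, with 10, 9 and 2 of the enzymes and 6 genes of the wider list between the mutants. SHMT1 (G245S, adjusted p 0.0298) and MTHFD2L (adjusted p 0.0416 and 0.0450) were then called lower, GCSH was called higher in G245S (adjusted p 0.0291), and SHMT2 differed between the mutants (adjusted p 0.00558). The cause of these differences was not tested. Depth limits MTHFD2L (162 counts in its lowest library) and ALDH1L2 (377) most.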
